A study of Mus musculus with 9 samples.

Results

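Mouse genes whose names end in "os" (opposite strand) are noncoding genes read from the strand opposite a named partner gene, and the letters before "os" give that sense partner. The set described here holds every listed gene name with this ending except Dnm3os and Dlx6os1, with its transcripts summed per name and a mean of at least 5 counts per library. Of 165 names considered, 59 reached that mean, 106 stayed below it and 4 of those had no count in any of the 9 libraries. The 59 genes comprised 125 of the 69547 listed transcripts, and after summing per gene name they were 59 of 67924 features. They held 0.0598% of all listed counts. At the threshold, Arhgap27os1 and Stamos averaged 5.11 counts and Arhgap27os3 5.22 counts, while Chrna1os and Zfp85os with 4.78 and Tnfsf13os with 4.67 fell just outside.

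The libraries were made from total RNA of spinal cord of wild type C57BL/6 mice aged 7 to 9 weeks and taken on day 7, 3 libraries per group. The HBO group had a spinal cord injury followed by hyperbaric oxygen (breathing oxygen at raised pressure); the injury group had the injury without oxygen; the control group had none by its labels, while the series design calls it sham, so these labels do not settle whether a sham operation was done. The listed transcripts are long noncoding RNAs, so no mRNA of a sense partner is described. Nothing states that the replicates came from separate animals, and the replicate spread behind every p-value may therefore be technical. In bulk cord, fewer cells of a type and less RNA per cell cannot be told apart.

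Opposite-strand RNAs arise in several ways. Some start beside their partner and run away from it, sharing the stretch of DNA between the starts; others start inside or beyond the partner and run back across it. Antisense RNAs are known to act on their own locus in some cases, by chromatin, by splicing or by pairing with the sense transcript, while many have no known function.

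All 59 genes lay on the strand opposite their partner in the GENCODE M21 annotation of GRCm38, the build named by the submitters. Of these, 13 were divergent with both starts within 1 kb, 19 overlapped the partner with both starts within 1 kb, 25 overlapped it with more distant starts, and 2 lay tail to tail with it. The median distance between the starts was 776 bp. The listed start and end matched that annotation in 119 of the 125 transcripts, and shared bases were counted on the annotated exons. An exon touched an exon of the partner in 38 genes and an exon of any coding gene in 41, and 18 genes touched none. Because the handling of strand in counting is not given in the sources used here, reads from the sense transcripts on those shared bases cannot be told apart from reads of the opposite-strand gene.

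The strips between the starts are shown for 4 divergent pairs, since there 1 stretch of DNA lies before both genes. They are Brip1os, which passed the tests below, and Map2k3os, Lhx1os and Ptgs2os, which did not. Capitals mark matches to GGGCGG and CCAAT on either strand, and in the Brip1 strip 1 match of each motif overlaps. The sequences were read from RefSeq windows on GRCm38.p6. They lie at chr11:86201194-86201369 (+ strand, 176 bp), chr11:60931868-60932032 (- strand, 165 bp), chr11:84525536-84525659 (+ strand, 124 bp) and chr1:150099964-150100030 (- strand, 67 bp).
Brip1 and Brip1os: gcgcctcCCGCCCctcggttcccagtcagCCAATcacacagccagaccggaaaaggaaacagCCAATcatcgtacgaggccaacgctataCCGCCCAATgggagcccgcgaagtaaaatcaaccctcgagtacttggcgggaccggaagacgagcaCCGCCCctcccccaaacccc
Map2k3 and Map2k3os: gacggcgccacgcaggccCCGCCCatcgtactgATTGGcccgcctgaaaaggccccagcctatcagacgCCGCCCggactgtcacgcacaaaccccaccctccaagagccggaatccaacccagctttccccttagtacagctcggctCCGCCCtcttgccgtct
Lhx1 and Lhx1os: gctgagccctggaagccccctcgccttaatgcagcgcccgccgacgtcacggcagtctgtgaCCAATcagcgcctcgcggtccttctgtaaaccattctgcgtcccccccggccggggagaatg
Ptgs2 and Ptgs2os: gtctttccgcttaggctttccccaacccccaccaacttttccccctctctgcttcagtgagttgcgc

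The Brip1 strip held 3 matches to GGGCGG, 3 to CCAAT and 15 CpG, with 61.9% G and C. The Map2k3 strip likewise held 3 matches to GGGCGG, with 1 to CCAAT. The Ptgs2 strip held neither motif. RefSeq promoter windows, which run from 250 bases before to 50 after the start, matched 39 of the 59 genes. GGGCGG occurred in 48.7% of these windows, against 52.9% of 51 partner windows and 35.9% of all 27025 windows. CCAAT occurred in 33.3% of the opposite-strand windows, against 43.1% of the partner windows and 37.9% of all. The median G and C content of the opposite-strand windows was 60.7%, against 59.7% in the partner windows and 52.7% over all windows.

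Levels spanned a wide range. Brip1os alone took 32.0% of the counts of the set. It averaged 199.9 CPM (counts scaled to a common library size with TMM factors) over 9 libraries, with Rab10os next at 43.8 CPM. Per length, by the deposited FPKM values averaged over 9 libraries, the order at the top was Brip1os at 7.97 FPKM, Rab10os at 5.84 FPKM, Hoxd3os1 at 3.65 FPKM and Zeb2os at 3.35 FPKM. Of the 59 genes, 43 had counts in all 9 libraries and 16 had none in at least 1 library.

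**Figure D1:**
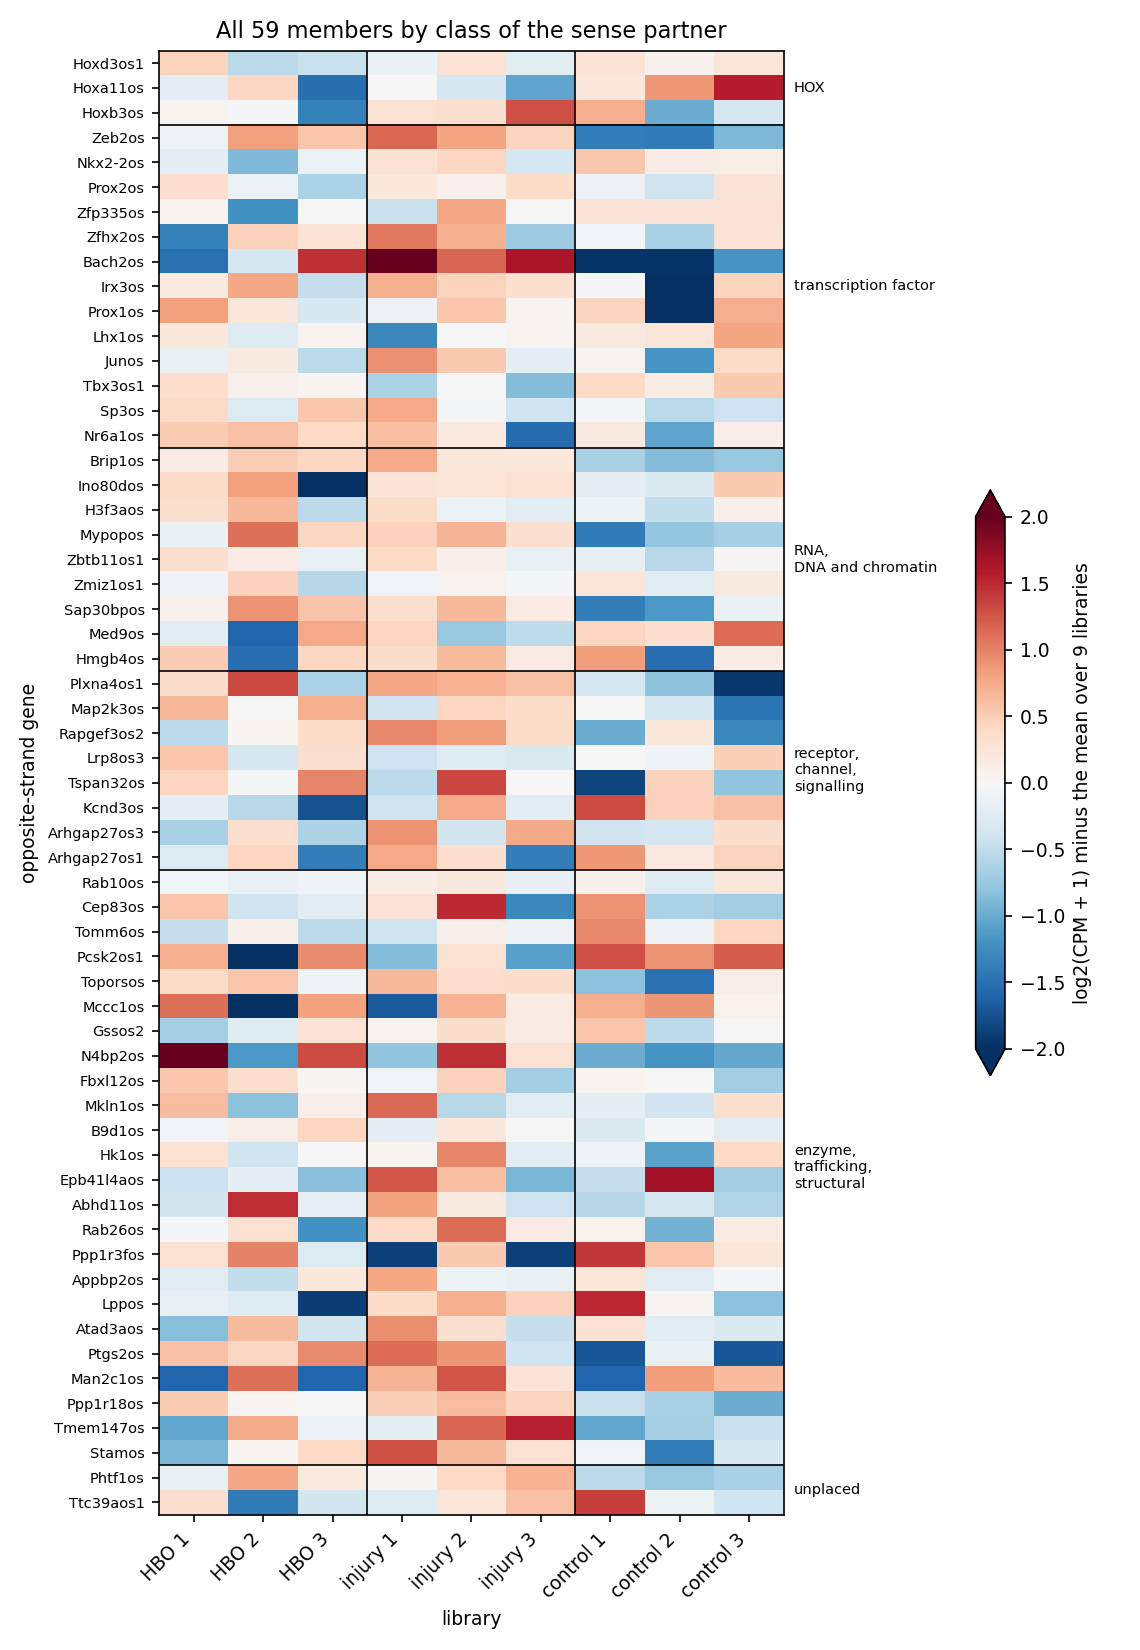
Heat map of all 59 opposite-strand genes (rows, grouped by what the sense partner encodes) in 9 libraries (columns), coloured by log2(CPM + 1) minus the gene's mean over the libraries. Brip1os, Zeb2os and Mypopos are pale red to red in most HBO and injury libraries and blue in all 3 control libraries, while Rab10os is close to white throughout.

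The first question was how the injured cord differed from cord without injury. Of the 59 genes, 49 passed the filter on low counts and were tested, and 4 of these rose in injury: Brip1os, Zeb2os, Mypopos and Bach2os. None fell by edgeR or DESeq2, against 2.43% of all features by edgeR, and 2 genes with lower values had an unadjusted p under 0.05. The 4 calls were 8.16% of those tested, against 6.06% of all 26602 features, and 3.63% of all features were called higher. That share includes Bach2os, which entered the tests mainly through the injury libraries, where it is high. With no filter on low counts, Bach2os (adjusted p = 0.0759) and Mypopos (adjusted p = 0.0904) did not pass. At an unadjusted p under 0.05 there were 12 genes, or 24.5%, against 27.7% of all features. The median log2 change was 0.31 over the 49 genes and 0.01 over all features. All adjusted p-values come from the quasi-likelihood test of edgeR, adjusted by Benjamini and Hochberg's method over all features, and a gene passed below 0.05.

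Brip1os starts 177 bp from Brip1, a DNA helicase of the Fanconi anaemia repair pathway, at chromosome 11, 86201370 to 86304443 on the + strand. It had 315, 219 and 216 CPM in the injury libraries, against 118, 102 and 110 CPM in the control libraries. Every injury library lay above every control library. The means were 250 ± 56.1 CPM in injury and 110 ± 8.42 CPM in control (SD, n = 3 each), a log2 change of 1.18 (SE 0.19, adjusted p = 0.0202). The transcript ENSMUST00000128960 of 4423 bases held 99.8% of its counts. Of the exon bases of its 2 transcripts together, 20.2% lay on exons of the neighbouring genes Ints2 and Med13, and none on Brip1. For ENSMUST00000128960 alone, which ends at 86211192, 512 of the 4423 bases lay on coding gene exons.

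Zeb2os lies within the span of Zeb2, a zinc finger repressor used in neural crest, oligodendrocytes and myeloid cells, at chromosome 2, 45111138 to 45114087 on the + strand. It had 46.3, 35.8 and 28.05 CPM in the injury libraries, against 7.19, 7.15 and 10.5 CPM in the control libraries. The lowest injury library lay above the highest control library. The log2 change was 2.14 (SE 0.30, adjusted p = 0.0157). Of its exon bases in GENCODE 29.7% lay on Zeb2 exons, with 0 bases on the coding sequence. Its transcript ENSMUST00000127150 differs there from the listed one, with 1736 exon bases against a listed length of 1305. Of its transcripts, tested alone, ENSMUST00000127150 passed (log2 change 1.78, adjusted p = 0.0209) and ENSMUST00000130827 did not (log2 change 3.02, adjusted p = 0.0848).

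Mypopos runs across Mypop, a Myb-type transcriptional repressor, at chromosome 7, 18993234 to 19001222 on the - strand. It had 16.3, 19.3 and 14.8 CPM in the injury libraries, against 3.79, 6.35 and 6.91 CPM in the control libraries. The groups did not overlap. The log2 change was 1.55 (SE 0.37, adjusted p = 0.0443). Its largest transcript, ENSMUST00000205975, has 1 exon that touches no coding exon and held 72.2% of its counts. Tested alone, this transcript had a log2 change of 1.44 with an adjusted p of 0.0801.

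Bach2os lies inside Bach2, a repressor that restrains effector differentiation in B and T cells, at chromosome 4, 32559680 to 32571708 on the - strand. It had 63, 20 and 30 counts in the injury libraries, against 0, 0 and 2 counts in the control libraries. With 113 counts against 2, the ratio of summed counts per effective library total was 56.3, with an exact 95% counting interval of 15.2 to 470. The fitted log2 change of 5.57 (adjusted p = 0.0386) depends on how near-zero counts are treated. Bach2os passed the filter on low counts mainly through the injury libraries, where it is high, and with no filter its adjusted p was 0.0759, so it did not pass. Of its exon bases, 537 lay on Bach2 coding sequence. A 30-base stretch of that overlap, chr4:32563217-32563246 on GRCm38, is shown on both strands to make the pairing visible, read 5′ to 3′.
Bach2os: tacattccatctcccatcaggcctggttcc
Bach2: ggaaccaggcctgatgggagatggaatgta

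**Figure D2:**
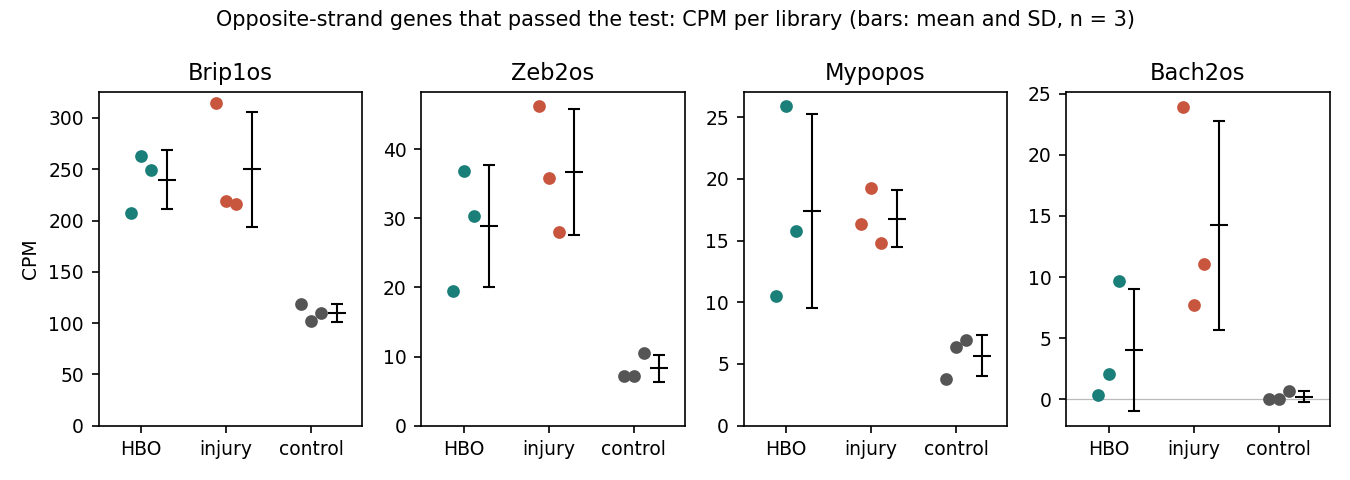
CPM per library (points) of the 4 genes that passed the test in at least 1 comparison, with the mean and SD of 3 libraries per group (bars), each panel on its own scale. The control points sit lowest in every panel for Brip1os, Zeb2os and Mypopos, and for Bach2os 1 HBO library, at 0.388 CPM, lies within the control range.

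The calls rested on few libraries. For Brip1os the adjusted p was 0.0535 without injury replicate 1, 0.0786 without control replicate 1 and 0.0802 without control replicate 2, and for Zeb2os it was 0.0535, 0.0759 and 0.0711 without the same libraries. The calls of Bach2os and Mypopos were lost without any 1 of the 6 libraries compared, with adjusted p between 0.0656 and 0.134 for Bach2os and between 0.0731 and 0.143 for Mypopos. Mypopos was also lost without HBO replicate 3, at 0.0596. The log2 changes without each of these libraries ran between 0.99 and 1.24 for Brip1os, 1.94 and 2.04 for Zeb2os, 1.33 and 1.72 for Mypopos, and 4.98 and 8.20 for Bach2os.

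Marker levels moved with the same contrast. The noncoding sums over fibroblast genes were 424 to 1149 CPM in injury, against 23.7 to 161 CPM in control, with 5 of 7 markers having a sum. Of these, Col1a2 and Fn1 lay above control and passed (log2 changes 4.14 and 1.87), and Postn passed with overlapping groups (3.39). Col1a1 (3.41, adjusted p = 0.0718) and Dcn (1.64, adjusted p = 0.135) overlapped and did not pass. For microglia and macrophage genes the sums were 206 to 397 CPM in injury, against 151 to 154 CPM in control, with 8 of 11 markers. Of these, Spp1 and Msr1 passed (log2 changes 2.89 and 3.37), while Cx3cr1 (0.12), P2ry12 (0.55) and Gpnmb (-2.55) overlapped. Aif1, Itgam and Csf1r were too low to be tested. For astrocyte genes the sums were 383 to 506 CPM in injury, against 245 to 291 CPM in control, with 6 of 7 markers. Of these, Slc1a3 passed (log2 change 0.76) and Gja1 lay above control without passing (0.61). Aqp4 (0.49), Aldh1l1 (-0.19) and Gfap overlapped, and Slc1a2 lay below control. For oligodendrocyte precursor genes the sums were 244 to 313 CPM in injury, against 98.2 to 142 CPM in control, with 2 of 3. These were nearly all Vcan, since Pdgfra had 0, 0 and 3 counts in injury and 0, 0 and 0 in control. For neuronal genes the sums were 441 to 759 CPM in injury, against 1217 to 1307 CPM in control, with 5 of 9. Oligodendrocyte sums overlapped, at 1328 to 1719 CPM in injury, against 1613 to 2167 CPM in control. The part of cell content in the change of any opposite-strand gene was not tested.

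Among the genes that missed the threshold, 7 more had all 3 injury libraries above all 3 control libraries, so that 11 of 49 lay above and 5 below. These shares were 22.4% and 10.2%, against 17.9% and 18.8% of all features. Phtf1os, opposite a membrane protein of little known function, had 10.995, 14.6 and 18.1 CPM in injury, against 7.19, 5.96 and 6.54 CPM in control (log2 change 1.14, adjusted p = 0.06). Sap30bpos, opposite a gene for a protein that binds the Sin3 corepressor component Sap30, had 8.34, 10.8 and 7.38 CPM in injury, against 1.89, 2.38 and 5.82 CPM in control (log2 change 1.37, adjusted p = 0.0896). Both sets of libraries stood apart without a call. With the overlapping listed transcripts added, the groups overlapped for Phtf1os (log2 change 1.12, adjusted p = 0.393), while Sap30bpos has no such transcript.

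Plxna4os1 lies opposite Plxna4, a semaphorin receptor of axon guidance. It had 10.2, 9.63 and 8.86 CPM in injury, against 4.16, 2.78 and 0.727 CPM in control (log2 change 1.89, adjusted p = 0.0974). Toporsos, opposite an E3 ligase gene, had 17.4, 13.9 and 14.0 CPM in injury, against 5.68, 3.18 and 11.995 CPM in control (log2 change 1.11, adjusted p = 0.127). All of the Toporsos exon bases in GENCODE, 1044 against a listed length of 1054, lie on exons of Ndufb6, Smim27 and Topors. Ptgs2os, next to the inducible cyclooxygenase gene Ptgs2, had 6.07, 5.01 and 1.48 CPM in injury, against 0, 1.99 and 0 CPM in control. Its groups overlapped (log2 change 2.62, adjusted p = 0.135).

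Some genes had lower values without a call. Hoxa11os, opposite a HOX gene of limb and posterior axis patterning, had 4.17, 3.08 and 1.48 CPM in injury, against 4.92, 8.34 and 14.2 CPM in control (log2 change -1.64, adjusted p = 0.138). Tbx3os1, opposite a T-box factor gene, had 1.90, 3.47 and 1.48 CPM in injury, against 4.92, 3.97 and 5.45 CPM in control (log2 change -1.06, adjusted p = 0.139). Lhx1os, opposite a LIM homeodomain gene of spinal interneurons, had 1.14, 4.24 and 4.43 CPM in injury, against 4.92, 5.16 and 7.997 CPM in control (log2 change -0.87, adjusted p = 0.274). In each of these 3 genes the injury libraries lay below the control libraries. Summed with the overlapping listed transcripts of the locus, Hoxa11os still did (log2 change -1.23, adjusted p = 0.114), while the groups overlapped for Tbx3os1 (0.02, adjusted p = 0.974) and Lhx1os (-0.84, adjusted p = 0.492). Nkx2-2os, opposite a homeodomain factor gene of oligodendrocyte differentiation, overlapped, with 20.5, 21.96 and 12.5 CPM in injury, against 24.2, 18.3 and 17.8 CPM in control (log2 change -0.13, adjusted p = 0.805).

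Other genes with neural and signalling partners gave no call either, and not all of them are named here. Prox1os, opposite a homeobox gene of neural progenitors and lymphatic vessels, had a log2 change of 0.10 and no count in control replicate 2. Irx3os, opposite a homeobox gene of neural tube patterning, had 0.87 and likewise no count in that library. Kcnd3os, opposite a voltage-gated potassium channel gene, had -0.88, and Lrp8os3, opposite the reelin receptor gene Lrp8, had -0.62. Junos, opposite the AP-1 gene Jun, had 0.70, Zfhx2os, opposite a zinc finger homeobox gene, 0.69, and Rab26os, opposite a vesicle GTPase gene, 0.97. These are log2 changes of injury against control, with adjusted p between 0.342 and 0.956. Rapgef3os2, outside that range, had 19, 17 and 12 counts in injury, against 3, 10 and 2 counts in control. Its only transcript, tested alone, had a log2 change of 1.63 with an adjusted p of 0.124.

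Other abundant genes varied within groups. Ino80dos, opposite a subunit gene of the INO80 chromatin remodeller, had 21.4, 29.3 and 3.23 CPM in HBO, 19.7, 19.3 and 20.3 CPM in injury, and 14.0, 13.1 and 23.6 CPM in control, so HBO replicate 3 stood low. Cep83os, opposite a centriole protein gene, had 21.4, 10.5 and 12.1 CPM in HBO, 17.4, 41.6 and 5.17 CPM in injury, and 27.3, 8.73 and 8.36 CPM in control. Its spread within injury was wider than any difference between group means. Tomm6os, opposite a gene of the mitochondrial import pore, had 10.1, 15.5 and 9.70 CPM in HBO, 10.6, 15.4 and 13.3 CPM in injury, and 28.8, 13.1 and 19.6 CPM in control. H3f3aos, opposite a histone H3.3 gene, had 17.5, 22.2 and 9.30 CPM in HBO, 18.2, 12.7 and 11.8 CPM in injury, and 12.9, 9.53 and 14.9 CPM in control. The groups overlapped in all of these genes, and none passed in any comparison.

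The transcription factor classes follow a fixed list of how partner symbols begin, so that Mypop, though a transcriptional repressor, stands with the RNA, DNA and chromatin proteins. Over all features 3.63% were called higher, with a median log2 change of 0.01, and no difference between classes or arrangements was tested. By class, 2 of 12 tested genes opposite transcription factors so defined, other than HOX, rose, Zeb2os and Bach2os, with a median log2 change of 0.50. Bach2os, counted here and among the overlapping genes with distant starts below, did not pass with no filter on low counts. Of 7 opposite RNA, DNA and chromatin proteins, 2 rose, Brip1os and Mypopos, with a median of 0.38. None of 20 opposite enzymes, trafficking and structural proteins (median 0.26), 6 opposite receptors, channels and signalling proteins (median 1.06) or 2 HOX genes (median -0.93) passed. Rab10os, opposite a GTPase gene of membrane traffic, was among the steadiest, with 48.1, 50.5 and 38.8 CPM in injury, against 46.9, 36.5 and 50.9 CPM in control (log2 change 0.03, 95% interval -0.36 to 0.42). By arrangement, 3 of the 20 tested genes that overlap the partner with distant starts rose (median 0.69), 1 of 9 divergent genes (median 0.53), and none of the 18 that overlap with starts within 1 kb (median 0.14).

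**Figure D3:**
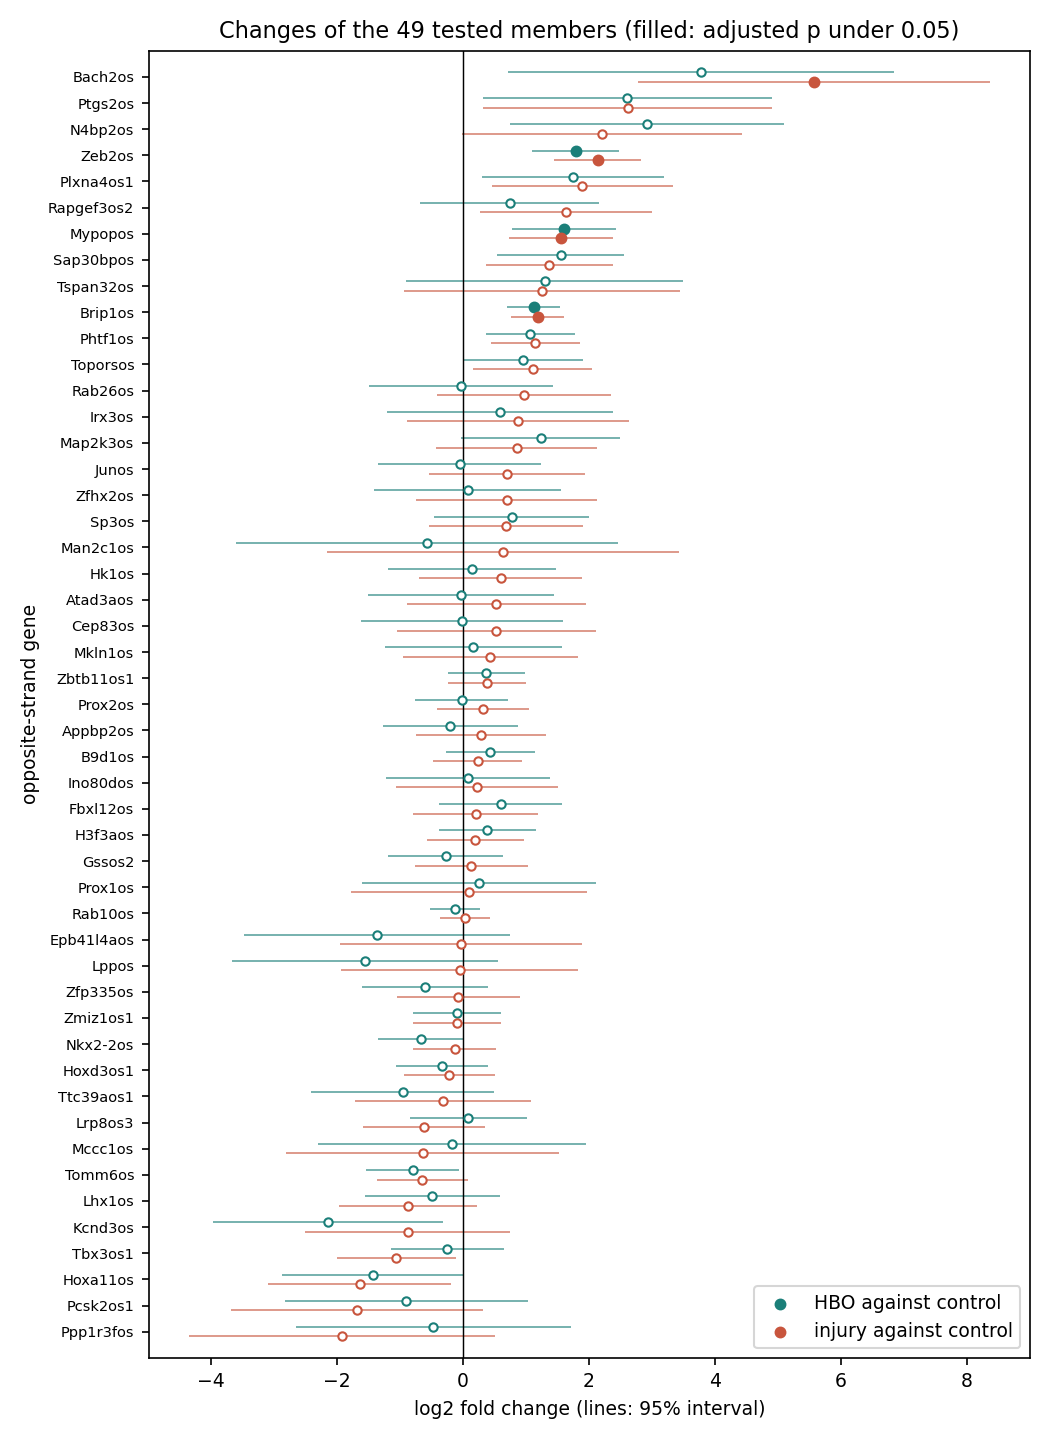
Log2 fold changes of the 49 tested genes, ordered by injury against control, with 95% intervals as lines; filled points passed at an adjusted p under 0.05. Brip1os, Zeb2os and Mypopos are filled in both comparisons and Bach2os in injury against control, where its interval of 2.78 to 8.36 is among the widest.

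The second question was what oxygen changed in injured cord. No opposite-strand gene passed in HBO against injury, against 0.015% of all features, which is 4 of 26602, with 0.00752% called in each direction. None of the 49 had an unadjusted p under 0.05, against 3.63% of all features, and DESeq2 also called none. The median log2 change was -0.14, with 17 genes above 0 and 32 below. One gene, Tbx3os1, had all HBO libraries above all injury libraries, and one, Lppos, below, or 2.04% each, against 4.41% and 4.08% of all features.

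Brip1os had 207, 263 and 249 CPM in HBO, against 315, 219 and 216 CPM in injury (log2 change -0.06, 95% interval -0.48 to 0.36). Zeb2os had 19.4, 36.8 and 30.3 CPM in HBO, against 46.3, 35.8 and 28.05 CPM in injury (log2 change -0.35, interval -0.98 to 0.29). Mypopos had 10.5, 25.9 and 15.8 CPM in HBO, against 16.3, 19.3 and 14.8 CPM in injury (log2 change 0.05, interval -0.72 to 0.82). The groups overlapped for all 3. Changes within those intervals, which are for single genes, remain possible, and under adjustment over all features larger ones could also miss the threshold. Bach2os had 1, 5 and 24 counts in HBO, against 63, 20 and 30 counts in injury (log2 change -1.80, interval -3.74 to 0.14), and HBO replicate 3 lay inside the injury range.

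Tbx3os1 had 4.66, 3.76 and 3.64 CPM in HBO, against 1.90, 3.47 and 1.48 CPM in injury (log2 change 0.81, adjusted p = 1.00). Lppos, opposite the focal adhesion gene Lpp, had 2.33, 2.09 and 0 CPM in HBO, against 3.79, 5.01 and 4.06 CPM in injury (log2 change -1.51). These genes held 30.7% and 25.5% of the counts of their loci, and with locus sums the groups overlapped for both, at log2 changes of 0.25 for Tbx3os1 and -0.04 for Lppos. Ppp1r3fos, opposite a gene for a protein phosphatase regulatory subunit, had 3.49, 6.27 and 2.02 CPM in HBO, against 0, 4.24 and 0 CPM in injury (log2 change 1.46). Its groups overlapped. Fibroblast marker sums were 1703 to 3220 CPM in HBO, against 424 to 1149 CPM in injury, and this gap was that of Col1a1, with 1546, 2959 and 2441 CPM in HBO, against 120, 655 and 1031 CPM in injury. The sums of Col1a2, Postn, Fn1 and Dcn overlapped between the groups, with log2 changes of -0.05, -0.36, -0.24 and -0.31, and none of the 5 passed. Their part in any value here was not tested.

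The third question was how oxygen-treated injured cord differed from cord without injury, using the control libraries of the first comparison again. Brip1os, Zeb2os and Mypopos were higher in HBO, which is 6.12% of those tested, against 4.29% of all features called either way and 2.9% called higher. None was lower by edgeR or DESeq2, against 1.39% of all features by edgeR, and 3 genes with lower values had an unadjusted p under 0.05. Brip1os changed by 1.12 on the log2 scale (SE 0.19, adjusted p = 0.028), Zeb2os by 1.79 (SE 0.30, adjusted p = 0.0283) and Mypopos by 1.60 (SE 0.37, adjusted p = 0.0468). In all 3 genes every HBO library lay above every control library. At an unadjusted p under 0.05 there were 13 genes, or 26.5%, against 25.9% of all features. The median log2 change was 0.08 over the 49 genes.

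Without control replicate 1, the adjusted p was 0.0962 for Brip1os, 0.11 for Zeb2os and 0.153 for Mypopos. Without control replicate 2 it was 0.0906, 0.0909 and 0.115, without HBO replicate 2 it was 0.0932, 0.0952 and 0.14, without HBO replicate 3 it was 0.0531, 0.0546 and 0.0777, and without injury replicate 2 it was 0.0509, 0.0559 and 0.072. Brip1os also missed without control replicate 3, at 0.0622. Mypopos also missed without control replicate 3 (0.0842), injury replicate 1 (0.0593) or injury replicate 3 (0.0693).

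Bach2os had 30 counts over the HBO libraries, against 2 over the control libraries, a ratio of 15.9 with a counting interval of 4.05 to 138, and did not pass (adjusted p = 0.126). Kcnd3os had 1.94, 1.25 and 0 CPM in HBO, against 7.19, 3.57 and 3.998 CPM in control, with no overlap (log2 change -2.15, adjusted p = 0.138). Ptgs2os had 3.88, 3.35 and 5.26 CPM in HBO, against 0, 1.99 and 0 CPM in control, again with no overlap (log2 change 2.61, adjusted p = 0.149). N4bp2os had 19.8, 1.25 and 11.3 CPM in HBO, against 1.51, 1.19 and 1.45 CPM in control (log2 change 2.92, adjusted p = 0.104), and HBO replicate 2 lay within the control range. Across the tested genes, 6 lay wholly above control and 3 wholly below, or 12.2% and 6.12%, against 16.2% and 16.7% of all features. Over all 59 genes, tested or not, 6 lay wholly above control in both HBO and injury (Brip1os, Zeb2os, Mypopos, Phtf1os, Sap30bpos and Ppp1r18os) and none wholly below in both. The matching share over all features was not computed, and the same control libraries serve both comparisons, so these counts have no background here. Ppp1r18os was too low to be tested, and with locus sums Phtf1os overlapped control in both.

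Another reading of the same loci came from the other listed noncoding transcripts that overlap each sense partner, summed per partner. A sum existed for 50 partners and 37 were tested. In injury against control, 4 rose and 2 fell, 16.2% against 12.2% of 7069 such sums, of which 6.71% rose and 5.5% fell. The partner loci that rose were Brip1 (log2 change 2.02, adjusted p = 0.0453), Zmiz1, a coactivator gene (1.16, adjusted p = 0.0155), Lpp (1.00, adjusted p = 0.0159) and Ppp1r18, the gene of the actin-linked phosphatase subunit phostensin (1.80, adjusted p = 0.0179). Those that fell were Pcsk2, the neuroendocrine prohormone convertase gene (-1.42, adjusted p = 0.0376), and Appbp2 (-0.41, adjusted p = 0.0226).

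Brip1os rose as well, the opposite-strand genes of Zmiz1, Lpp, Pcsk2 and Appbp2 did not pass, and Ppp1r18os was too low to be tested. With no filter, Ppp1r18os had a log2 change of 1.74 (adjusted p = 0.118). The Brip1 sum itself was low, at 12.7, 7.99 and 7.199 CPM in injury, against 2.71, 0.718 and 3.17 CPM in control. The Zeb2 sum had 2051, 1828 and 2044 CPM in injury, against 1272, 1654 and 1453 CPM in control (log2 change 0.44, adjusted p = 0.0548). The Mypop sum changed by 1.15 (adjusted p = 0.149) and the Bach2 sum by 0.15 (adjusted p = 0.333). The Zmiz1 sum rose while Zmiz1os1 had 9.10, 10.02 and 9.23 CPM in injury, against 11.4, 7.94 and 10.9 CPM in control (log2 change -0.09).

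In HBO against control the sums of Brip1 (2.29), Ppp1r18 (1.77), Lpp (1.04), Zmiz1 (0.92) and Zeb2 (0.67) rose and that of Hoxd3 (-0.64) fell, 16.2% against 8.16% of all sums, of which 5.21% rose and 2.96% fell. In HBO against injury none of the 37 passed by edgeR or DESeq2, against 0.0283% of all sums (0.0141% each way), and 1 had an unadjusted p under 0.05. Over 33 pairs with both values, the log2 changes of gene and partner sum had Pearson r = 0.39 and Spearman rho = 0.49 in injury against control, 0.32 and 0.33 in HBO against control, and -0.04 and 0.04 in HBO against injury. These correlations run across genes that share libraries and, within a pair, genomic bases.

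**Figure D4:**
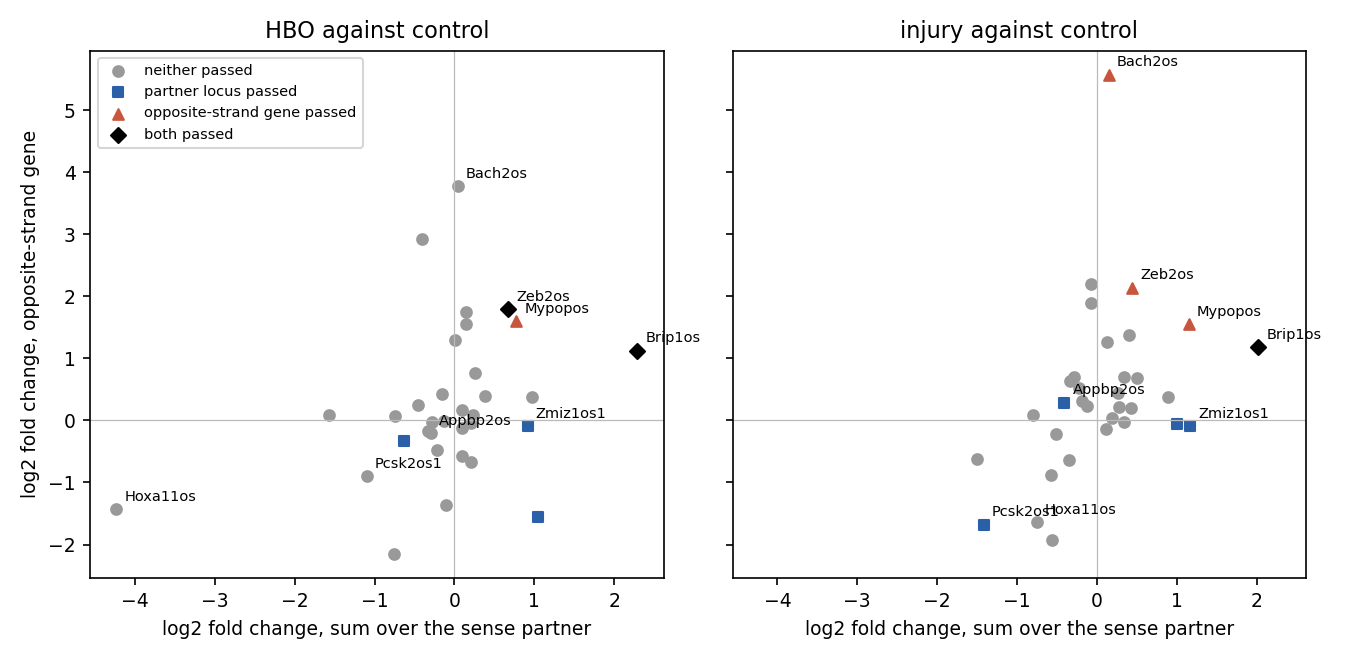
Log2 fold change of each opposite-strand gene (vertical) against that of the summed noncoding transcripts over its sense partner (horizontal), 33 pairs per panel, with HBO against control on the left and injury against control on the right. Brip1os and its partner sum passed in both panels, Zeb2os with its partner sum in HBO against control, and Bach2os stands high above a partner sum near 0.

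At several loci the counts moved between overlapping listed transcripts from library to library. Another listed transcript overlapped an exon in 50 of the 59 genes, and in 26 genes the named gene held under 50% of the summed locus counts. N4bp2os, opposite a gene for a nucleic acid binding protein, had 51, 3 and 28 counts in HBO, 5, 33 and 14 in injury, and 4, 3 and 4 in control. The transcript NONMMUT052520.2, at the same place, had 0, 33 and 0 counts in HBO, 49, 0 and 51 in injury, and 36, 32 and 51 in control. In the HBO and injury libraries, 1 of them was high where the other was low.

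Pcsk2os1 had 43, 0 and 49 counts in HBO, 13, 32 and 11 in injury, and 67, 48 and 66 in control. Its overlapping transcript NONMMUT109838.1 had 2, 19 and 4 counts in HBO, 30, 2 and 35 in injury, and 3, 11 and 9 in control. Summed over the locus, the log2 change in injury against control was 0.28 (adjusted p = 0.564) for N4bp2os in place of 2.21 (adjusted p = 0.183), and -0.88 (adjusted p = 0.119) for Pcsk2os1 in place of -1.68 (adjusted p = 0.255). The Pcsk2os1 locus sum then lay wholly below control in both HBO and injury.

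The Bach2os locus differed from these. Its overlapping transcripts NONMMUT046591.2 and NONMMUT116504.1 were lowest in the 3 control libraries. NONMMUT046591.2 had 51, 67 and 83 counts in HBO, 141, 78 and 91 in injury, and 7, 8 and 31 in control. NONMMUT116504.1 had 28, 50 and 34 counts in HBO, 48, 19 and 27 in injury, and 2, 4 and 10 in control. The locus sum reached 31.1, 51.0 and 57.0 CPM in HBO, 95.5, 45.1 and 54.6 CPM in injury, and 3.41, 4.76 and 15.6 CPM in control. It rose in injury (log2 change 3.02, SE 0.55, adjusted p = 0.0261) and in HBO (log2 change 2.53, SE 0.54, adjusted p = 0.0408), both against control. Bach2os itself held 15.7% of the counts of this locus, and the other transcripts were added without regard to strand. With locus sums, 57 of the 59 genes were tested, and the same 3 other genes passed in both comparisons with control. With Bach2os these were 4 genes, or 7.02%, in each comparison. Over all 26554 features of that fit, 1628 passed in injury and 1147 in HBO, against control. In HBO against injury none of the 57 passed, against 4 of all features.

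**Figure D5:**
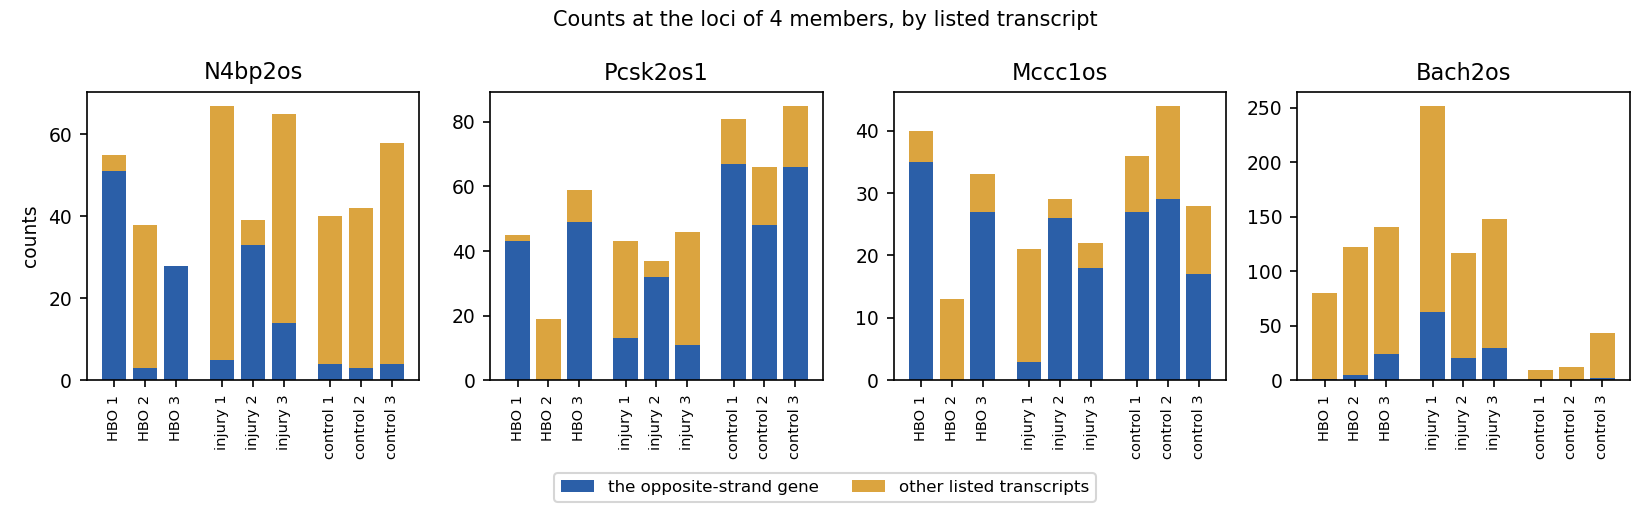
Counts per library at 4 loci, split between the opposite-strand gene (blue) and the other listed transcripts that overlap its exons (yellow). At N4bp2os, Pcsk2os1 and Mccc1os the share of blue differs widely between libraries of 1 group; at Bach2os the whole bar is low in the 3 control libraries, at 9, 12 and 43 counts.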

How the data were processed

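Spinal cord total RNA of 9 libraries was sequenced. For every listed long noncoding transcript the authors deposited counts and FPKM, per the file headers. The submitters' processing notes name HISAT2 and GRCm38; the counting program, its handling of strand and of multiple hits, and all versions were not given in the sources used here. Counts are whole and not normalized, and FPKM is scaled by the authors by length and a library total. The listed counts summed to 2295433 to 3148744 per library, 17.1% to 19.5% of the totals recovered from FPKM.

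Counts were summed per gene name (67924 features), filtered with filterByExpr (minimum count 10), scaled by TMM and fitted in one model of 3 groups with edgeR 4.0.16 (glmQLFit, glmQLFTest) in R 4.3.3. Benjamini-Hochberg adjustment ran over all 26602 features tested, and 0.05 was the threshold. Intervals on summed counts are exact at 95% and cover counting error only. Positions came from GENCODE M21 (GRCm38) and sequences from GENCODE and RefSeq on GRCm38. Members, lists and tests were chosen with earlier results of these data known. Named genes were those that passed, the highest, those with the largest changes, those at the threshold and those with neural, glial, immune or scar partners, where the last kind is a judgement from the partner symbol. The fit was tested on simulated counts, where most 2-fold and most 4-fold changes were missed and some calls were false. Replicates differed by more than counting noise (7.93 to 23.0 chi-square units per degree of freedom). The highest values, 21.8 and 23.0, were those of HBO replicate 3 with HBO replicates 1 and 2. HBO replicates 1 and 2 gave 8.89, and no pair without HBO replicate 3 exceeded 12.8. HBO replicate 3 thus stood apart within its group, which bears on both comparisons that use HBO. Alternatives were DESeq2 1.42.0, RLE scaling, a replicate block, no filter, the 2 groups alone, FPKM totals, transcripts as listed, a mean of 10 counts and leaving out each library; locus sums were added after seeing the data.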

Additional observations from a re-analysis of the deposited data

How the results depend on the processing

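The count of opposite-strand genes that passed in HBO against injury was 0 under all alternatives run. In injury against control (4 genes) it was 2 with no filter on low counts, 8 with DESeq2, 2 with transcripts as listed, and 0 to 6 with 1 library left out; in HBO against control (3 genes) it was 2 with no filter, 8 with DESeq2, 2 with transcripts as listed, 2 with FPKM totals, 2 with the 2 groups alone and 0 to 3 with 1 library left out. Replicate numbers did not pair the samples (correlations of same-numbered deviations -0.06 to 0.05); with a replicate block 0 genes passed in either comparison with control, while the log2 changes of Brip1os were 1.18 and 1.13. With that block, partner sums that passed numbered 2 (injury against control) and 1 (HBO against control), in place of 6 each; without 1 library they numbered 0 to 6 and 0 to 7. Over all features, injury against control gave 1611 calls, 308 with no filter, 3903 with DESeq2, 7 with the block and 34 to 1814 without 1 library. HBO against control gave 1140, then 204, 3293, 9 and 20 to 1037, and 331 with the 2 groups alone. HBO against injury gave 4, then 49 with DESeq2, 2 with the block, 2 with FPKM totals and 2 to 19 without 1 library. With no filter, Mypopos missed the threshold in both (adjusted p = 0.0904 in injury and 0.0928 in HBO, against control). It also missed with FPKM totals (adjusted p = 0.0588 in injury and 0.0635 in HBO, against control), which shifted the median of all features by -0.22 and -0.16 (log2). The small HBO against injury changes turned sign: Brip1os (-0.06) was 0.0194 with FPKM totals and -0.15 to 0.14 with 1 library left out (0.04 without HBO replicate 1 and 0.14 without injury replicate 1); Mypopos (0.05) was -0.0263 with the block and -0.35 to 0.31 with 1 library left out (-0.35 without HBO replicate 2 and -0.03 without injury replicate 3). The cause of these shifts was not tested. Low counts left 10 of 59 genes untested.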

Other observations

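Of 5 other antisense or overlapping names (ending in "as" or "ot" with a mean of at least 5 counts), 0 passed in any comparison by edgeR. In injury against control 1 had an unadjusted p under 0.05, or 20%, against 27.7% of all features, of which 6.06% passed. Nespas, antisense at the imprinted Gnas locus, had 12.4, 16.3 and 12.9 CPM in HBO, 27.3, 18.9 and 10.3 CPM in injury, and 9.46, 7.15 and 8.72 CPM in control. Its control libraries lay below all the others.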
